A study of Canis lupus familiaris with 6 samples.

Results

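P114 is a canine mammary tumor cell line derived from an anaplastic cancer, and its gene expression after co-culture with myeloid-derived suppressor cells (MDSCs) was compared with that of the same cells grown alone. The comparison rests on 2 of the 6 arrays of the series, which carry 1 pair of P114 RNA samples with the dyes exchanged. On array 1 the co-culture RNA was labelled with Cy5 (red) and the monoculture RNA with Cy3 (green), and on array 2 the dyes were reversed. The genes described are those at probes that were well above background in both cultures on both arrays, a flag that the scanning software sets from the spot signal and the spread of the background, and whose ratio had the same sign on both arrays. They number 3822 of 8587 measured genes, out of 13044 gene symbols on the array.

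The series also holds CMT-U27, a simple carcinoma line, and CMT-U309, a spindle cell tumor line, each with the same pair of cultures on 2 arrays. The MDSCs were sorted from the blood of healthy dogs and placed in inserts above the tumor cells, so that medium but not cells was shared, and the labels give at least 72 h of co-culture while the methods give a shorter time. All cultures were kept in RPMI-1640 with fetal bovine serum, and none received a further agent. P114 is 1 cell line with 1 RNA pair, so its ratios describe these 2 cultures, have no biological replicate and carry no test. The spread given with them is the difference between the arrays, which is technical.

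MDSCs are immature myeloid cells that accumulate in the blood and tumors of animals with cancer, where they restrain T cells and release cytokines, growth factors and matrix proteases. Tumor cells respond to such factors through receptors that feed JAK-STAT, NF-kB and growth factor signaling, and type III interferons (IL-28 and IL-29) act through the receptor subunit IL-28RA. The study asked which tumor cell genes change when the cells share medium with MDSCs.

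The arrays of P114 did not order the probes alike. After the dye-swap had been turned, the log2 ratios of co-culture over monoculture correlated at r = -0.12 between the arrays over the 23554 measured probes and at r = -0.40 over all probes with a ratio on both arrays. The labelled direction was kept, since both labels and dyes are stated for each array. Of the measured probes, 10321 (43.8%) had equal signs, 5041 above and 5280 below 0, and 13233 had opposite signs. Probes that were at least 1.5-fold apart on both arrays in opposite directions numbered 420, more than the 314 that were 1.5-fold apart in the same direction. The former follow the dye and are not described further. If the labelled direction of array 2 were wrong, these 420 and the 314 would exchange roles. The median difference between the arrays was 0.32 on the log2 scale. Over the 6 arrays, 53.0% to 76.9% of the spots were well above background in co-culture and 55.2% to 81.0% in monoculture, and no spot was saturated.

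A probe was called higher or lower where it was at least 1.5-fold (0.58 on the log2 scale) apart on both P114 arrays in the same direction. This held for 70 probes higher in co-culture (0.297% of 23554) and for 244 lower (1.04%). At 1 probe per gene, the brightest, 27 genes (0.314% of 8587) were higher and 99 (1.15%) were lower. The smaller of the 2 ratios was 0.585 in size at the last probe inside the threshold and 0.584 at the first outside. At 2-fold on both arrays 5 probes were higher and 70 lower, while 70 probes had opposite signs at that size. With normexp background correction and loess in place of the processed signals, 5 of the 27 higher genes and 21 of the 99 lower genes stayed past 1.5-fold on both arrays. The called probes were dimmer than the measured probes as a whole, with a median log2 signal of 7.83 for the higher and 7.38 for the lower ones against 8.65. Of the 314 probes, 311 have a position in the files, and 110 of these cover more than 60 bases of genome, the probe length.

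**Figure D1:**
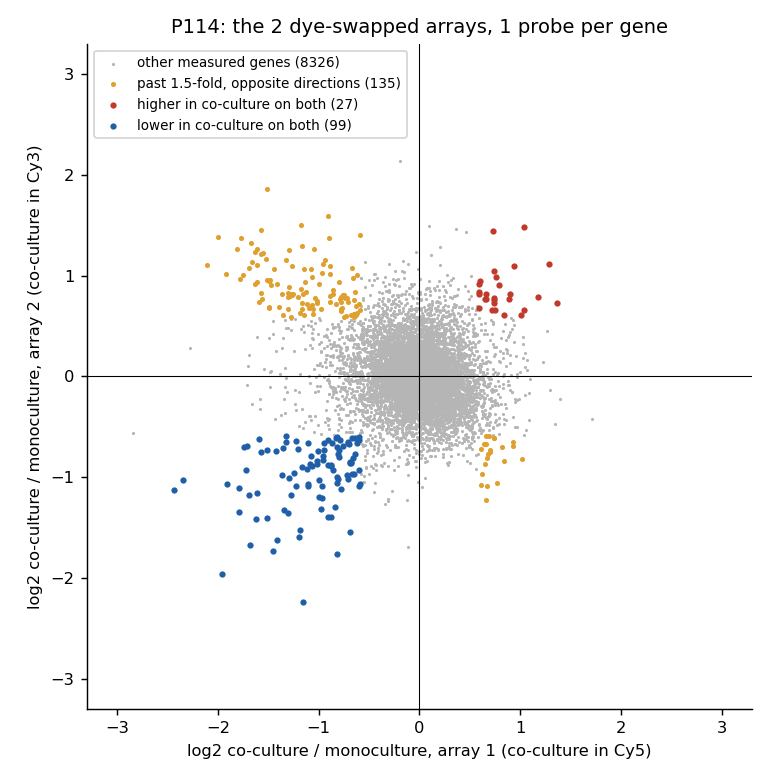
Log2 ratio of co-culture over monoculture of each measured P114 gene at its brightest probe, array 1 on the x axis and array 2 on the y axis after turning the dye-swap. The 27 genes higher on both arrays (red) and the 99 lower on both (blue) stand beside 135 genes past 1.5-fold in opposite directions (orange), and the cloud of the other 8326 genes has no upward slope.

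The probe sequences of a few genes are given to show what was read at the largest ratios and where probes of a gene agreed or disagreed. The arrays carry 60-base oligonucleotides, of which the central 30 bases are printed 5′ to 3′ as the files give them, with positions on canFam2. TNPO1 and SLC38A10, each with 1 measured probe, led the genes above 0, all measured BSG probes were below 0, and the CAPZB probes disagreed. No letters are in capitals, since no motif was searched.
TNPO1 (chr2:58723687-58723746): tttccgcttcccttaaaagagcgtcttgca
SLC38A10 (chr9:3838589-3838648): gatgtgcaggtcaatgacctccgcagcgcc
BSG, brightest probe (chr20:61090373-61090432): cgccttacctgttccttgaaccgcagcacc
CAPZB, brightest probe (chr2:82205818-82205877): ctggaaatctgattcccttgtgtttgggag
CAPZB, second probe (chr2:82205430-82205489): tggtggaggccttgaagagaaagcagcagt
CAPZB, further probe (chr2:82190344-82190403): cctcataaagaaggctggagatggatccaa

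TNPO1, transportin 1, which carries proteins into the nucleus, came first among the genes above 0 when these are ordered by the smaller of their 2 ratios. Its processed signal was 5524 in co-culture and 2267 in monoculture on array 1, and 5851 against 2699 on array 2. The log2 ratios were 1.28 and 1.12. Both co-culture signals lay above both monoculture signals, which is no further support, since the same signals chose the gene. SLC38A10, an amino acid transporter of the SLC38 family, had signals of 680 and 332 on array 1 and 893 and 320 on array 2, with log2 ratios of 1.03 and 1.48. SEPT11, a septin of the cytoskeleton, came next in that order, with a mean log2 ratio of 1.02. The other 12 of the 15 genes with the largest ratios above 0 were SNX1, a sorting nexin of endosomes, FBXW4, DDAH2, CXCR6, ARID5B, RPRD1B, FOXN2, STYXL1, PAIP2B, PXK, SMNDC1 and FASN, and their mean log2 ratios ran from 0.69 for FASN to 1.08 for SMNDC1. Under normexp and loess 4 of the 15 (TNPO1, SLC38A10, SNX1 and SMNDC1) kept the call.

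Several of these have a known part in surface signaling or metabolism. CXCR6, the receptor of the chemokine CXCL16, was dim, with signals of 199 in co-culture and 107 in monoculture on array 1 and 172 and 101 on array 2. The log2 ratios were 0.89 and 0.77. The co-culture signals did not overlap with the monoculture signals, which is no further support, since the same signals chose the gene. Under normexp and loess its mean was 0.33 and the call ended. FASN, fatty acid synthase, had log2 ratios of 0.72 and 0.66 from signals of 639 against 389 and 791 against 501. SMNDC1, a splicing factor, had 0.73 on array 1 and 1.44 on array 2, so its size depended on the array.

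The 15 genes with the largest ratios below 0 included genes of membrane traffic, of the matrix and of signaling. VPS37B, a subunit of the ESCRT-I complex that sorts ubiquitinated receptors into endosomes, had signals of 36.4 in co-culture and 142 in monoculture on array 1 and 41.8 and 163 on array 2. The arrays gave the same log2 ratio, -1.96, a 3.89-fold lower signal in co-culture, but under normexp and loess the mean was -0.62 and the call ended. BSG (basigin, CD147), a surface glycoprotein that induces matrix metalloproteinases in neighboring cells, had signals of 611 and 1956 on array 1 and 768 and 2451 on array 2, with log2 ratios of -1.68 and -1.67. RAB5C, a GTPase of early endosomes, had -1.46 and -1.74. CSF1, macrophage colony-stimulating factor, a growth factor of the myeloid lineage, had signals of 139 in co-culture and 371 in monoculture on array 1 and 128 and 393 on array 2, with log2 ratios of -1.42 and -1.62. HSPG2, the basement membrane proteoglycan perlecan, had -1.28 and -1.18 at signals near the low end, 44.9 against 109 and 61.7 against 139.

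RFNG, a fringe glycosyltransferase that modifies Notch receptors, had log2 ratios of -1.63 and -1.42, and AES, a co-repressor of the Groucho family, had -1.79 and -1.35. TAGLN3, a transgelin of the actin cytoskeleton, had -1.69 and -1.18. MAF1, a repressor of RNA polymerase III, had -1.61 and -1.16. The other 6 were UBE2O, a ubiquitin-conjugating enzyme, KPNA6, an importin, CDCA5 (sororin), which holds sister chromatids together, TSPAN9, SGTA and PRPF19, with mean log2 ratios from -1.33 for CDCA5 to -1.70 for PRPF19. PRPF19, a splicing and ubiquitin ligase factor, was the least even of the 15, with -1.16 on array 1 and -2.24 on array 2. Under normexp and loess 10 of these 15 genes kept the call, and the mean log2 ratio was -0.34 for UBE2O, -0.36 for HSPG2, -0.42 for CDCA5 and -0.70 for TSPAN9, which with VPS37B did not.

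**Figure D2:**
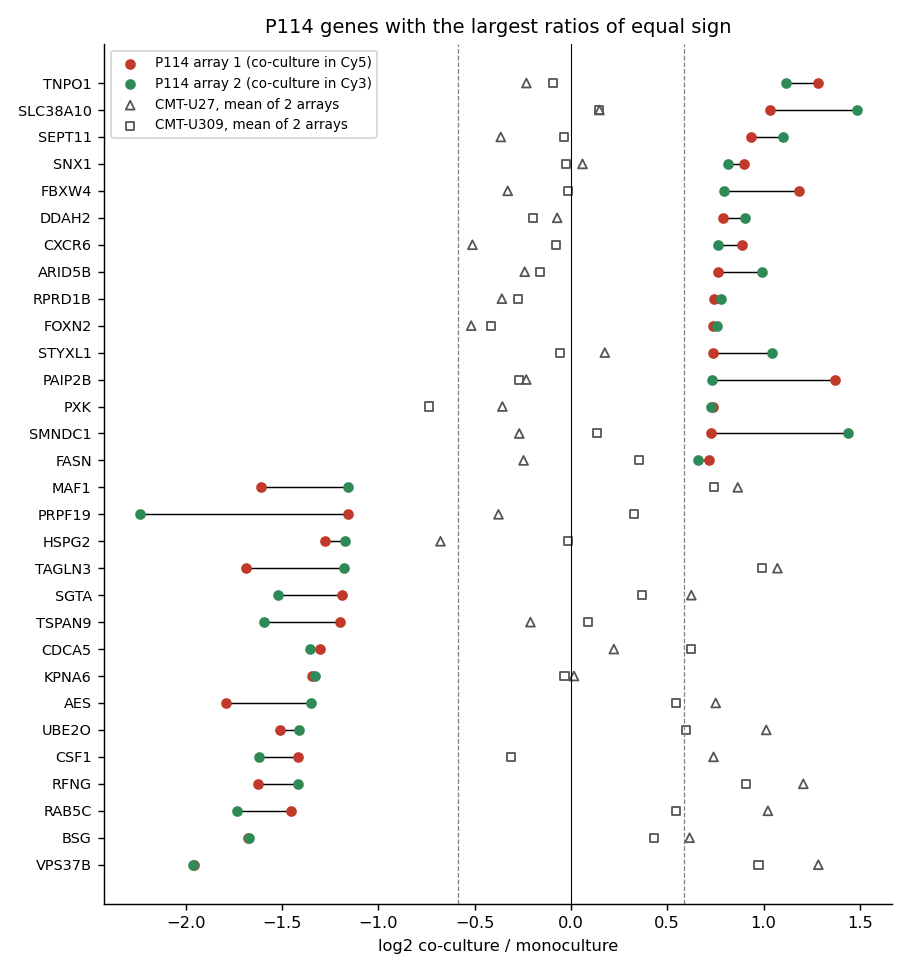
Log2 ratio of co-culture over monoculture for the 15 genes with the largest ratios above 0 and the 15 below 0 in P114, with array 1 in red, array 2 in green and a line joining them. Open symbols give the mean of the 2 arrays of CMT-U27 and CMT-U309, which for VPS37B, RFNG, TAGLN3 and MAF1 lie to the right of 0, and dashed lines mark 1.5-fold.

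For some genes further probes were measured. BSG had 6 measured probes, all with log2 ratios below 0 on both P114 arrays, from -0.67 to -1.68 on array 1 and from -0.36 to -1.67 on array 2. All 6 had ratios above 0 in CMT-U27 and in CMT-U309. CAPZB, the beta subunit of the actin capping protein, had 3 probes. The brightest had log2 ratios of 0.01 and 0.34, and the other 2 had -2.01 and -1.64 and then -1.66 and -1.54, from mean signals of 1289, 1038 and 885. CAPZB was therefore counted as not called by its brightest probe, although 2 of its probes were more than 2-fold lower on both arrays. Over all genes, 172 had at least 1 probe called lower and 43 at least 1 called higher, 1 gene being in both, and in 73 and 16 of these the brightest probe was not among the called. The 99 genes called lower by their brightest probe had 37 further measured probes, of which 29 were below 0 on both arrays and 14 were called. The 27 called higher had 13 further probes, of which 8 were above 0 on both arrays and none was called. PXK had a further probe at -1.11 and 0.28 and another at 0.27 and 0.48, and ARID5B had one at 0.53 and -0.22. The further probes of SNX1 had 0.36 and 0.94, and 0.38 and 1.53.

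**Figure D3:**
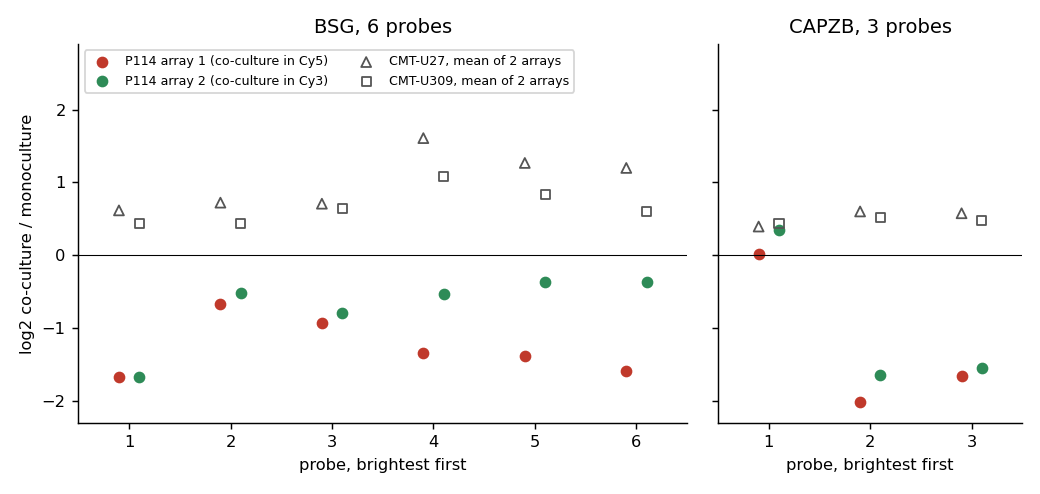
Log2 ratio of co-culture over monoculture at each measured probe of BSG and CAPZB, ordered from the brightest probe. In P114 (red, array 1; green, array 2) all 6 BSG probes lie below 0, while 1 of 3 CAPZB probes does not, and the means of CMT-U27 and CMT-U309 (open symbols) lie above 0 at every probe.

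Genes of the actin cytoskeleton and its regulators gave 5 of 53 measured members called lower and none higher, against 1.15% lower and 0.314% higher over all genes. The 5 were TAGLN2, CNN1, FSCN1, ARHGDIA and ACTN4. TAGLN2 (transgelin 2) had signals of 444 in co-culture and 2409 in monoculture on array 1 and 693 and 1511 on array 2, and log2 ratios of -2.44 and -1.12. CNN1 (calponin 1), an actin-binding protein of contractile cells, had -1.91 and -1.07. FSCN1 (fascin), which bundles actin in protrusions, had -1.59 and -0.62, and ARHGDIA, a GDP dissociation inhibitor, had -1.11 and -1.07. In each of the 5 both co-culture signals lay below the monoculture signal of the same array, which follows from the call itself. Under normexp and loess TAGLN2, CNN1 and ARHGDIA kept the call, and FSCN1 and ACTN4 lost it. The list as a whole had a median log2 ratio of -0.04 against -0.02 for all genes, with 13 members above 0 and 17 below 0 on both arrays.

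Glycolysis and hypoxia response genes formed the list with the highest median. Of 41 measured members 23 (56.1%) were above 0 on both arrays and 5 below, against 20.4% and 24.1% of all genes. The median log2 ratio was 0.14, with 0.16 on array 1 and 0.26 on array 2, and no member reached 1.5-fold on both arrays. SLC2A1, the glucose transporter GLUT1, had signals of 7980 and 4235 on array 1 and 9888 and 7159 on array 2, with log2 ratios of 0.91 and 0.47. BNIP3, a mitochondrial protein induced in hypoxia, had 0.86 and 0.37, P4HA1, a collagen prolyl hydroxylase, had 0.28 and 0.93, and VLDLR, a lipoprotein receptor, had 0.65 and 0.53. In CMT-U27 and CMT-U309 the median of the list was 0.27, and 15 of the 41 passed the test as higher and 4 as lower, against 11.03% and 10.04% of all genes measured in P114.

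Of 31 measured mesenchymal genes of the epithelial-mesenchymal transition, 2 were called lower, against 1.15% over all genes. On both arrays 6 members were above 0 and 3 below, against 20.4% and 24.1% of all genes. LOXL2, a lysyl oxidase that crosslinks collagen, had log2 ratios of -1.09 and -0.87, and TGFBI, a matrix protein induced by TGF-beta, had -0.67 and -0.61. SNAI1, the transcription factor snail, had -0.70 and -0.47 and was not called. The median of the list was 0.02. VIM (vimentin) had signals of 122772 and 123323 on array 1 and 120224 and 86820 on array 2, and its log2 ratios of -0.01 and 0.47 were of opposite sign.

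Among 25 measured epithelial junction and keratin genes, 9 were below 0 and 4 above 0 on both arrays, and 2 were called lower. KRT19, a keratin of simple epithelia, had log2 ratios of -0.60 on both arrays, and CLDN7, a tight junction claudin, had -0.69 and -1.54. KRT80 and ELF3 had mean log2 ratios of -0.59 and -0.50 and were not called. The median of the list was -0.09. Over all genes 24.1% were below and 20.4% above 0 on both arrays and 1.15% were called lower. Under normexp and loess neither call held, with means of -0.59 for KRT19 and -0.44 for CLDN7.

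In the list of angiogenic factors and their receptors 2 of 32 were called, both lower, against 1.15% lower and 0.314% higher over all genes. On both arrays 10 members were above 0 and 11 below, against 20.4% and 24.1% of all genes. The median of the list was -0.02, as for all genes. CYR61, a matricellular protein, had signals of 2438 in co-culture and 4476 in monoculture on array 1 and 2716 and 7128 on array 2, with log2 ratios of -0.88 and -1.39. PLXND1, a semaphorin receptor, had -0.71 and -0.66, but a mean of -0.25 under normexp and loess, which ended its call. THBS1, thrombospondin 1, an inhibitor of vessel growth, had -0.47 and -0.62 and fell short of the threshold on array 1. VEGFC was read by 2 probes, with log2 ratios of 0.08 and -0.15 at one and -0.09 and 0.62 at the other, so neither gave an equal sign. SEMA6C had 2 measured probes, one at 0.28 and 0.18 and one at -0.45 and 0.17.

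The type III interferon genes gave no even change in P114. IL28RA did not reach the level of a signal well above background on either P114 array, with signals from 3.55 to 14.04, so that no fold is given. IL28B had signals of 108 in co-culture and 72.8 in monoculture on array 1 and 130 and 133 on array 2, with log2 ratios of 0.57 and -0.03. IL29 had 0.56 and -0.18. Of 24 measured genes of the interferon lambda receptor and JAK-STAT list none was called, and 5 were above and 5 below 0 on both arrays. STAT3 had 4 measured probes, of which 3 were below 0 on both arrays, and its brightest had -0.08 and -0.16. SOCS3 was well above background in 1 of 2 channels of each culture. Of 23 interferon-stimulated genes, ISG20, an RNA exonuclease, was called higher at 0.59 and 0.68, against 0.314% over all genes. Under normexp and loess ISG20 had -0.15 and 0.38, with a mean of 0.11, which ended the call. Of this list none was called lower, and CXCL10, an interferon-induced chemokine, had -0.52 and -0.73.

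Genes through which tumor and myeloid cells signal to each other were mostly dim. Of 19 measured myeloid growth factor and prostaglandin genes CSF1 was called lower and none higher, against 1.15% lower and 0.314% higher over all genes. CSF2, the growth factor GM-CSF, had log2 ratios of -0.51 and -0.48, and PTGER4, a receptor of prostaglandin E2, had 0.59 and 0.58, just short of the threshold on array 2. Among 17 chemokines and chemokine receptors CXCR6 was called higher (0.314% over all genes), with the limit given above, and among 26 interleukins and their receptors none was called. The IL18 probe that was measured had -0.07 and -0.41. The probe of MMP20 stayed near background in both cultures, and that of KRT17 was well above it in 1 monoculture channel alone.

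In the other lists 0 to 2 members were called, while over all genes 0.314% were called higher and 1.15% lower. Among 63 cell cycle genes TK1, thymidine kinase, was called higher at 0.59 and 0.81 and none lower. FASN was the only gene called among 32 of cholesterol and fatty acid synthesis, and ACACA, which makes the malonyl-CoA that FASN uses, had -1.09 and -0.40. DVL2, a transducer of Wnt signals, was called lower with signals of 43.0 against 86.1 on array 1 and 39.1 against 89.4 on array 2. DAPK3, a death-associated kinase, was called lower at -1.02 and -0.87, and TXNRD2, the mitochondrial thioredoxin reductase, at -0.67 and -0.96. Under normexp and loess TK1, FASN, DVL2, DAPK3 and TXNRD2 lost the call, and DAPK3 had opposite signs, -1.07 on array 1 and 0.31 on array 2. None was called among 57 oxidative phosphorylation, 62 mitochondrial ribosomal, 51 cytosolic ribosomal, 39 proteasome and 49 chaperone genes, whose medians ran from -0.07 to -0.01. Nor was any called among TGF-beta and BMP, immediate early, growth factor receptor, NF-kB, antigen presentation or S100 and calpain genes, with medians from -0.10 to -0.02. HSPG2 was the only gene called among 41 of the matrix, and BSG was the 1 gene called lower among 31 proteases and inhibitors.

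**Figure D4:**
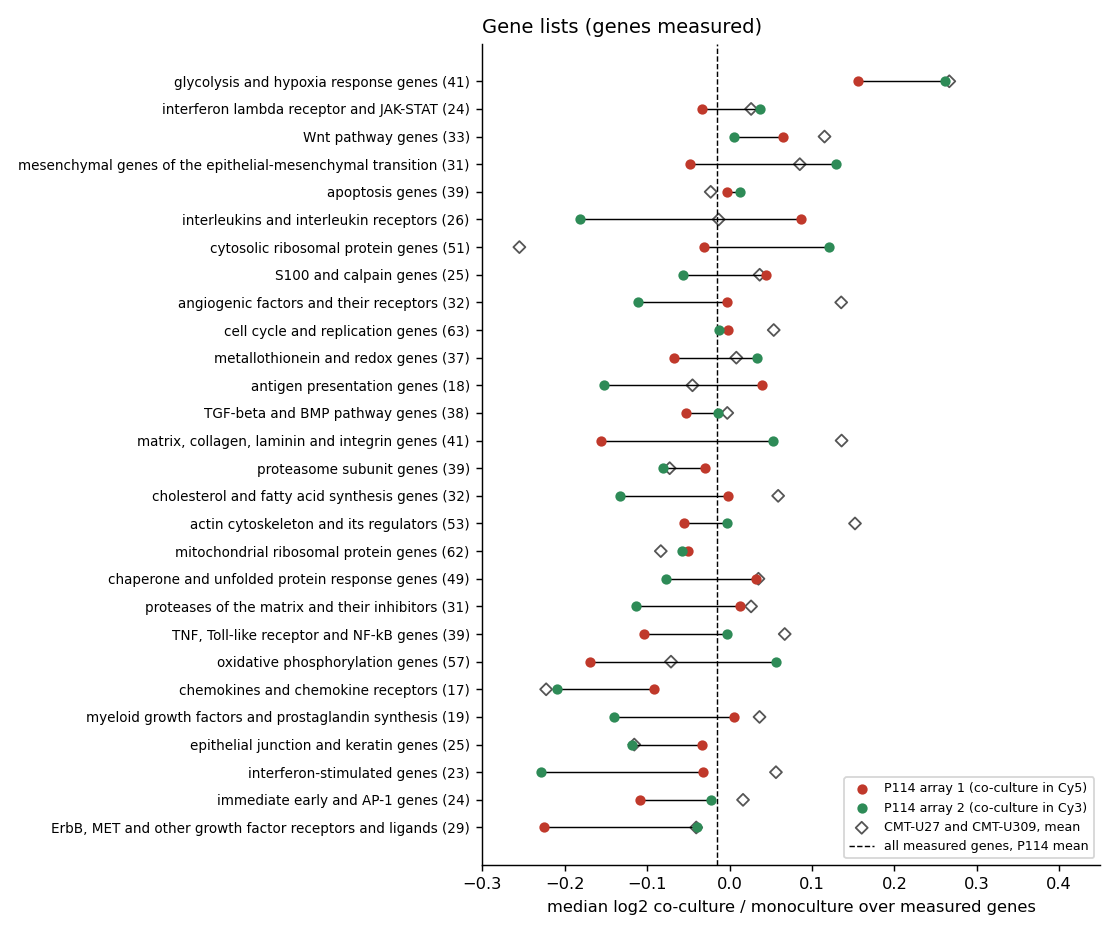
Median log2 ratio of co-culture over monoculture over the measured genes of each of 28 lists, the number measured in parentheses, on P114 array 1 (red) and array 2 (green) and in the mean of CMT-U27 and CMT-U309 (diamonds). The glycolysis and hypoxia list stands at 0.16 and 0.26 on the P114 arrays, and the medians of the other lists lie between -0.23 and 0.13 on either array, around the median of all genes (dashed, -0.02).

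Markers of other cells were followed because RNA of the inserted MDSCs could in principle have been collected. Of 26 myeloid markers on the array 6 were measured in all 4 channels, namely S100A8, CYBB, CD68, ARG1, ITGB2 and MS4A7. None of these was called, and 1 was above 0 and 0 below 0 on both arrays. Another 11 were in no channel well above background, among them ITGAM (CD11b), PTPRC (CD45), LYZ and MPO. No myeloid marker was well above background in co-culture alone. Their summed signal was 2103 and 2070 in co-culture and 1782 and 2396 in monoculture, so the cultures overlapped. Mammary luminal markers were measured for 9 of 15 genes, 7 of them below 0 on both arrays and 1 above, against 24.1% and 20.4% of all genes. KRT19 and CLDN7 were called lower, against 1.15% of all genes, and neither call held under normexp and loess. The summed signal of the luminal markers was 3377 and 3822 in co-culture against 4216 and 4857 in monoculture. Of 12 basal markers 8 were measured, with CNN1 called lower. ESR1 and TP63 were in no channel. Of 10 fibroblast markers 9 were measured, and summed to 135296 and 209632 in co-culture and 153501 and 153209 in monoculture, so that P114 expressed collagen genes as well as keratins. In bulk RNA, fewer cells of a kind and less RNA per cell cannot be told apart.

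The probes that were well above background in 1 culture alone had a bound in place of a ratio. In 83 probes this was co-culture and in 27 monoculture, on both arrays. A bound compared the mean of the brighter culture, after loess and between-channel normalization, with the dimmer culture set on each array to its own signal or, where larger, to the weakest signal that passed the flag. The bound was above 1-fold for 79 of the 83 probes on the co-culture side and for all 27 on the monoculture side. It reached 1.5-fold for 12 and 26 of them. The genes below were chosen after their values were seen. TRPM4, a cation channel, was brighter in co-culture by at least 2.80-fold. NDNL2 was at least 4.09-fold lower in co-culture, RAB15, an endosomal GTPase, at least 3.47-fold and LFNG, lunatic fringe, at least 3.14-fold.

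CMT-U27 and CMT-U309 give a measure of the P114 genes that took no part in their choice. The mean of the 2 lines was tested against 0 with limma at an adjusted p under 0.05, with n = 2 lines, and 9.65% of 43445 probes passed as higher in co-culture and 7.43% as lower. Of the 244 probes lower in P114, 68 (27.9%) passed as higher in the other lines and 4 (1.64%) as lower, against 10.4% and 9.90% of all probes measured in P114. Their median log2 ratio in the other lines was 0.29, and 82.4% were above 0, against -0.03 and 46.3% of the measured probes. Of the 70 probes higher in P114, 3 passed as higher and 7 as lower in the other lines, and the median was -0.11. At 1 probe per gene, 28 of the 99 lower genes passed as higher in the other lines and 2 as lower, and of the 27 higher genes 0 passed as higher and 2 as lower. Without a trend of the variance with signal, limma called no probe in the other lines (11882 had an unadjusted p under 0.05), so these counts depend on that choice.

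Among the named genes this was so for VPS37B, which had a log2 ratio of 1.13 ± 0.21 (SE, limma adjusted p = 0.0071) in the other lines. BSG had 0.52 ± 0.10 (limma adjusted p = 0.0087), TAGLN2 1.25 ± 0.10 (limma adjusted p = 0.000115) and CNN1 1.12 ± 0.12 (limma adjusted p = 0.00039). LOXL2, ARHGDIA, RFNG, RAB5C, AES, SGTA, TAGLN3 and MAF1 passed in the same direction. PTGER4, above 0 in P114, was lower in the other lines at -0.71 ± 0.13 (limma adjusted p = 0.0071). CSF1 was not alike in them, with 0.74 in CMT-U27 and -0.31 in CMT-U309. BNIP3 and MT1E, a metallothionein at 0.52 and 0.68 on the P114 arrays, were higher in the other lines too, at 0.56 ± 0.09 and 0.72 ± 0.10 (limma adjusted p = 0.0044 and 0.0015).

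**Figure D5:**
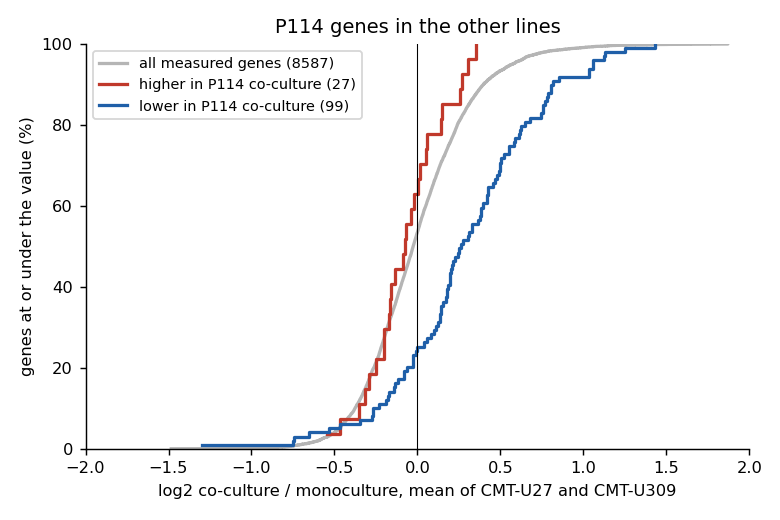
Cumulative share of genes (y axis, %) by their log2 ratio of co-culture over monoculture in the mean of CMT-U27 and CMT-U309 (x axis), for all measured genes (grey), the 27 higher (red) and the 99 lower (blue) in P114. The curve of the lower genes lies to the right, with 74.7% of them above 0 against 46.6% of all genes.

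The difference between P114 and the other lines was tested with limma on the 3 line means, in which the single P114 value is assumed to vary like the other lines. Over 43425 probes 0.928% (403) were higher in P114 relative to the other lines and 2.28% (991) lower, and with the dye as a replicate block 829 were higher and 1276 lower. Of the called probes, 35 of the 70 and 145 of the 244 passed, but the same P114 ratios had chosen them, so this is no independent support. Each line lies on a slide of its own, so line and slide cannot be told apart. Across measured probes the mean ratio of P114 correlated with that of CMT-U27 at r = -0.19 and of CMT-U309 at r = -0.18, while the other lines correlated with each other at r = 0.63, as a description of probes that share arrays and base composition.

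The base composition of the probes moved with these results. The GC content had a median of 43.3% over measured probes, 48.3% over those lower in P114 and a value between these over those higher. Across measured probes it correlated at r = -0.14 with the P114 ratio and at r = 0.26 with that of the other lines. Of the 244 lower probes 200 were above the median GC content and 44 at or below it, while the 70 higher probes split into 39 and 31. The 44 had a median log2 ratio of 0.17 in the other lines against -0.11 for all measured probes of that GC range, and the 200 had 0.32 against 0.06. The GC content still varied within each range. The part of base composition in the size of the P114 ratios, and in the opposite direction in the other lines, was not tested.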

How the data were processed

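Agilent canine 4x44K arrays compared co-culture with monoculture RNA in 2 colors. The authors scanned them with Feature Extraction, version 10.10.1.1 in the file headers and 10.7.3.1 in the processing notes. The deposited files hold intensity values per spot and dye, after background subtraction, a linear and a lowess adjustment between dyes, and the replacement of the lowest signals by surrogates. The authors also deposited log10 ratios per spot, and a table of log10 ratios that differs from these by at most 5e-06.

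From the deposited intensity values, the log2 ratio of the processed co-culture over monoculture signal was computed without further scaling in Python 3.11.15 (pandas 2.3.3). Control spots and outlier spots were left out, and up to 5 spots of each of 43603 probes were averaged. A P114 probe was called at 1.5-fold on both arrays. Each gene was represented by its brightest measured probe. Named were the 15 genes in each direction with the largest smaller ratio, leaving out accession names, up to 4 members of each of 28 lists, and the study's genes. The members and lists were chosen with earlier results of these data known. Of 13044 symbols 11812 were in the RefSeq gene table. Exon and intron annotation on canFam2 was not used here.

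CMT-U27 and CMT-U309 dye-swap means, counted as n = 2 lines, were tested with limma 3.58.1 in R 4.3.3 (lmFit, eBayes with trend, Benjamini-Hochberg over all probes). Replicate numbers mark the dye of the co-culture. The deviations of arrays with the same number correlated at r = 0.29, 0.57 and 0.44 between lines, so the number was also fitted as a replicate block. The alternatives were scaled channels, normexp (offset 50) with loess, the deposited ratios, outlier spots kept, other filters and thresholds, limma without a trend, and each array left out. Counts with array 2 unturned and by GC content were added after seeing the data. The number of arrays limits the precision. A few genes are not reported here.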

Additional observations from a re-analysis of the deposited data

Results flagged for a closer look

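Genes named for the largest P114 ratios were flagged by the limma test on 3 line means, at the threshold used above. In it P114 is a single value, so only the size of the difference from the mean of CMT-U27 and CMT-U309 is given. STYXL1, FASN, TSPAN9 and HSPG2 were not flagged. The flags depend on the variance trend and on single arrays, as described below. The genes were chosen by their P114 ratio, so these differences are given as values and not as independent support, and P114 has 1 RNA pair on 1 slide.

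Higher in P114 relative to the other lines, on the log2 scale, were TNPO1 by 1.36, PAIP2B by 1.30, PXK by 1.28, SEPT11 by 1.22, FOXN2 by 1.21 and FBXW4 by 1.16. SMNDC1 differed by 1.15, CXCR6 by 1.12, SLC38A10 by 1.11, ARID5B by 1.08, RPRD1B by 1.07, DDAH2 by 0.98 and SNX1 by 0.84. In SLC38A10 and SNX1 the other lines were near 0, while FOXN2 and PXK were lower in co-culture in both of them.

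Lower in P114 relative to the other lines were VPS37B with a difference of -3.09, RFNG with -2.58, TAGLN3 with -2.47, RAB5C with -2.38, UBE2O with -2.27 and AES with -2.22. BSG had -2.20, MAF1 -2.19, SGTA -1.85, CDCA5 -1.75, CSF1 -1.73, PRPF19 -1.67 and KPNA6 -1.33. For KPNA6 the other lines stood at 0.02 and -0.03, so that its difference was that of P114 alone. PRPF19 had signs that differed between CMT-U27 and CMT-U309.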

How the results depend on the processing

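With P114 channels scaled to a common median 82 probes were higher and 231 lower. With normexp and loess, where the offset shrinks the ratios of dim probes, 19 were higher and 58 lower, without a background filter 360 and 1090, at 2-fold 5 and 70, by the mean of the arrays 225 and 502, and at 1 probe per gene 27 and 99. One array alone gave 881 to 1419 higher and 917 to 1736 lower. At or under the median GC content 31 were higher and 44 lower, and over it 39 higher. With array 2 unturned there were 80 and 340. The deposited ratios, outlier spots and saturation left the counts at 70 and 244. In the other lines, normexp and loess gave 1847 higher, and the deposited table, in which low spots stand at exactly 0, and limma without a trend gave 0 and 0, with 9643 and 11882 probes at an unadjusted p under 0.05. Leaving out 1 array gave 902 to 2411 higher and 355 to 2250 lower. For P114 minus the other lines, scaling gave 193 higher, normexp and loess 728, probes above background 1153 and 1776, signals over 10 657 higher, the replicate block 829 higher, and the deposited table and limma without a trend 0 and 0, with 6182 and 7890 probes at an unadjusted p under 0.05. Leaving out 1 array gave 1 to 4352 higher and 49 to 7380 lower, the fewest without CMT-U309 replicate 1 and the most without P114 replicate 2, so this difference depends on single arrays. None of the 132 named genes changed the sign of its mean ratio under any setting run, which for each array alone follows from how they were chosen, but under normexp and loess 67 moved beyond the SD of the arrays, 64 came to a ratio more than 1.5 times smaller, and 21 of the 46 called ones kept the call. Of the 28 list medians 9 changed sign under normexp and loess, 3 under scaling, 3 over all measured probes of a gene, 4 without P114 replicate 1 and 9 without replicate 2. Some called genes, DAPK3 and ISG20 among them, had opposite signs on the arrays under normexp and loess. The cause of these shifts was not tested. The dimness of many called probes limits how well their ratios are known.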

Other observations

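A few related genes with opposite or shared changes in P114 were picked after their values were seen, and are given without a test. Of the transportins, TNPO1 was higher in co-culture, while TNPO2 had log2 ratios of -2.34 and -1.03 on the P114 arrays. The kinases AKT1 and AKT2 were both lower on both arrays, with AKT1 at -0.96 and -1.09 and AKT2 at -1.02 on array 2. Under normexp and loess TNPO1 kept the call, while TNPO2, AKT1 and AKT2 lost it. TNPO2 then had log2 ratios of -0.65 and -0.10, AKT1 -0.66 and -0.57, and AKT2 -0.62 and -0.08. Of 11 measured genes of the Notch pathway, 6 were below 0 on both arrays and 1 above, and RFNG and AES, seen before the list was drawn up, were called lower, against 24.1% below 0, 20.4% above 0 and 1.15% called lower over all genes. Of 27 measured ESCRT genes 8 were above and 8 below 0 on both arrays, with a median of -0.01, and VPS37B alone was called.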
